A study of Homo sapiens with 9 samples.

Results

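Messages with a 5' terminal oligopyrimidine (TOP) motif encode much of the translation machinery, and the 9 genes described here are abundant TOP messages outside the ribosomal protein genes. They comprised EEF1A1, EEF1B2, EEF1D, EEF1G and EEF2 for the cytosolic elongation factors, RACK1 for a protein of the small ribosomal subunit, and TPT1, NPM1 and NAP1L1 for partners with other roles. They were chosen by gene symbol, and all 9 were among the 51105 genes listed in both deposited tables. RNA came from HEK293T cells, an established human embryonic kidney line with the genotype given as wildtype, fixed with 0.1% formaldehyde for 10 min. The 9 libraries were 3 of input RNA, 3 of RNA immunoprecipitation (RIP) with anti-PABPN and 3 of RIP with anti-PABPC. Input and both RIPs of a biological replicate came from a shared lysate. None of the 9 libraries was a control pull-down with IgG. The paper made such pull-downs and reports too little RNA from them for sequencing.

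PABPN is the nuclear and PABPC the cytoplasmic poly(A) binding protein, and the comparison asked which of them these messages accompanied at steady state. A TOP message begins at its cap with a cytosine followed by an uninterrupted stretch of pyrimidines, and this stretch places its translation under the control of the mTORC1 pathway and the La-related protein LARP1. eEF1A, encoded by EEF1A1, carries aminoacyl-tRNA to the ribosome. The proteins of EEF1B2, EEF1D and EEF1G form the exchange complex that returns eEF1A to its GTP-bound state, and eEF2 moves the ribosome along the message. RACK1 is a scaffold on the small subunit, TPT1 encodes the translationally controlled tumour protein, NPM1 a nucleolar chaperone with a role in ribosome assembly, and NAP1L1 a histone chaperone.

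The start sites are shown because the genes were chosen as TOP messages, and the sequences were taken from RefSeq on GRCh38.p14. Each line gives 28 bases on the strand of the transcript, from 8 bases before the annotated start base. Capitals mark the run of C and T that begins at the start base, and in EEF1G the run of 4 bases that begins 1 base after it.
EEF1A1: tgaacgttCTTTTTCgcaacgggtttgc
EEF1B2: cttcgggtCCTTTTTCCTCTCTTCagcg
EEF1G: ggcggcttaCTTTgcggcagcgccgaga
EEF2: tcagcgttCTCTTCCgccgtcgtcgccg
TPT1: gagtcggcCTTTTCCgcccgctcccccc
RACK1: ttttctctCTCTCTTTCactgcaaggcg
NPM1: cctgcgtcCTTTCCCTggtgtgattccg
NAP1L1: tcttgggtCTTTTTTagcgccatctgct

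The windows lay at chr6:73521013-73521040 (minus strand) for EEF1A1, chr2:206159887-206159914 (plus) for EEF1B2, chr11:62573872-62573899 (minus) for EEF1G and chr19:3985444-3985471 (minus) for EEF2. Those of the partners lay at chr13:45341164-45341191 (minus) for TPT1, chr5:181243887-181243914 (minus) for RACK1, chr5:171387841-171387868 (plus) for NPM1 and chr12:76084666-76084693 (minus) for NAP1L1. A C at the start base followed by at least 4 bases that are C or T was found at a start of 7 of the 8 genes with a listed start, all but EEF1D, read on the strand of the transcript. Because the genes were chosen as TOP messages, this describes them and is no result. Of all 35116 start windows 4.07% held the motif, and by gene 787 of the 10763 genes with a listed start and a mean above 50 in both tables held it. The run was longest in EEF1B2, with 16 bases, and was 7 to 9 bases long in the other 6. EEF1B2 and NPM1 each had a second listed start, with A and G at the start base, so in these genes the motif belongs to 1 of 2 annotated promoters. EEF1G was the exception, with an A at its annotated start base.

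The PABPN table gave the mean over 3 PABPN RIP and 3 input libraries for each gene, and the PABPC table the mean over 3 PABPC RIP and the same 3 input libraries. These means are read counts divided by DESeq2 size factors, with reads in introns and exons of a gene counted together. They sum to 45.54 M in the PABPN table and 43.72 M in the PABPC table, and the size factors within a table differed by up to 1.26-fold and 1.56-fold. The PABPC table was put on the scale of the PABPN table by the factor 1.17, the ratio of the size factors of the shared input libraries. Because input is then the same in both means, a ratio above 1 between the tables is the least by which PABPC RIP exceeded PABPN RIP, and the ratio minus 1 is the least by which PABPC RIP stood over input. A ratio above 2 therefore places PABPC RIP above input. PABPN RIP and input cannot be ordered from these means. These bounds rest on the authors' scaling of the libraries. The means carry no replicate spread, and the columns of the authors' own comparison, which do, were not used, so no difference below was tested. For the level of a message in such bulk data, more copies in each cell and more cells that hold it cannot be told apart.

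All 9 genes had a higher mean in the PABPC table, by 1.48-fold to 4.16-fold with a median of 3.12-fold. The ratio was above 2 for 7 of the 9 genes, against 12.2% of the 14581 genes with a mean above 50 in both tables and 13.8% of the 12452 protein coding genes among them. All 9 passed that minimum. The median ratio was 0.976 over all genes and 1.04 over protein coding genes. EEF1D and NAP1L1 stayed below 2, and no member was below 0.5, where 1.18% of all genes lay. The 9 genes together held 0.495% of the summed means of the PABPN table and 1.35% of those of the PABPC table. Counting error of a ratio was between 0.193% and 0.616%. It leaves out the spread between replicates and was computed as if the 2 means shared no libraries.

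**Figure D1:**
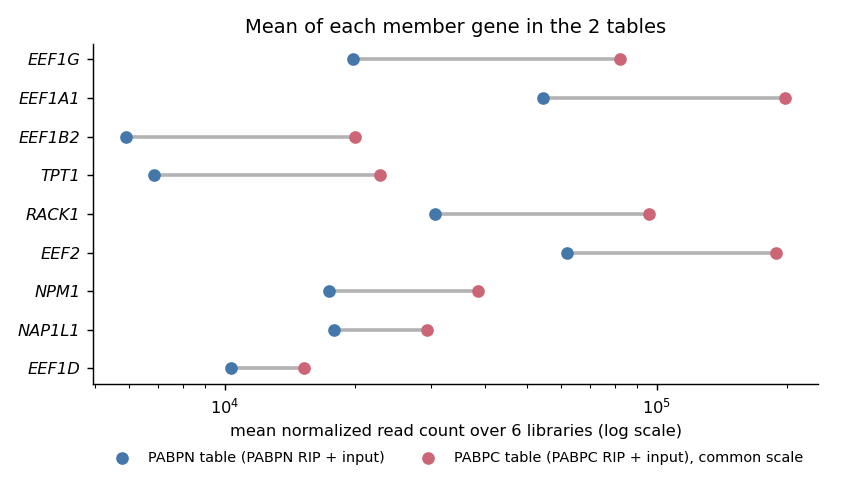
Mean normalized read count of each gene (log scale) from PABPN RIP and input (blue, PABPN table) and from PABPC RIP and input (red, PABPC table, common scale), in order of the ratio; each point is a mean over 6 libraries, with no error because the values are pooled means. The red point lies to the right for all 9 genes, farthest for EEF1G (4.16-fold) and least for EEF1D (1.48-fold).

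EEF1A1, on chr6:73489308-73525587 (ENSG00000156508, minus strand, GENCODE release 44 on hg38), had a mean of 54536 normalized reads in the PABPN table and, on the common scale, 198388 in the PABPC table. It ranked 13th by mean in the first and 3rd in the second among the genes above the minimum. PABPC RIP was thus at least 3.64-fold over PABPN RIP and at least 2.64-fold over input. This ratio lay above that of 98.8% of all genes. The scales from the 3 input libraries taken singly gave 3.62 to 3.67.

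The subunits of the exchange complex had unlike ratios. EEF1G, the gamma subunit, on chr11:62559596-62574086 (ENSG00000254772, minus), had means of 19768 and 82308 and the highest ratio of the 9 genes. Its PABPC RIP level was at least 4.16-fold over PABPN RIP and at least 3.16-fold over input, above 99.6% of all genes. EEF1B2, the beta subunit, on chr2:206159585-206162928 (ENSG00000114942, plus), had the lowest PABPN table mean of the 9, 5903, a PABPC table mean of 20030, and a ratio of 3.39. EEF1D, the delta subunit, on chr8:143579697-143599541 (ENSG00000104529, minus), had means of 10342 and 15275 and a ratio of 1.48. Its ratio was above that of 75.7% of all genes. Set against EEF1D, the ratio was 2.82 times as large for EEF1G, 2.46 times for EEF1A1 and 2.30 times for EEF1B2. The 4 genes of the eEF1 complex thus included the highest and the lowest ratio of the 9.

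EEF2, the translocase, on chr19:3976056-3985463 (ENSG00000167658, minus), had the highest mean of the 9 genes in the PABPN table, 61882, where it ranked 7th. Its mean in the PABPC table was 188966, ranked 4th, with a ratio of 3.05 that placed PABPC RIP at least 2.05-fold over input. RACK1, on chr5:181236897-181248096 (ENSG00000204628, minus), had means of 30664 and 95815 and a ratio of 3.12. The ratios of RACK1 and EEF2 differed by 1.02-fold. EEF1A1, EEF2, RACK1 and EEF1G were 4 of the 20 highest means of the PABPC table, and EEF1A1 and EEF2 were 2 of the 20 highest of the PABPN table.

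Among the partners, TPT1 on chr13:45333471-45341284 (ENSG00000133112, minus) had means of 6851 and 22857. Its ratio of 3.34 was close to that of EEF1B2, 1.02-fold apart. NPM1, on chr5:171387116-171411810 (ENSG00000181163, plus), had means of 17417 and 38576 and a ratio of 2.21, so PABPC RIP was at least 1.21-fold over input. NAP1L1, on chr12:76036585-76084735 (ENSG00000187109, minus), had nearly the same mean in the PABPN table, 17930, but 29326 in the PABPC table. Its ratio of 1.64 lay above 80.3% of all genes, and the ratio of NPM1 was 1.35 times as large. For NAP1L1 and EEF1D the means do not settle whether PABPC RIP exceeded input. The order of the 9 ratios was thus EEF1G, EEF1A1, EEF1B2, TPT1, RACK1, EEF2, NPM1, NAP1L1 and EEF1D. NPM1 and NAP1L1 stood next to each other on either side of 2, and whether neighbours in this order differ beyond replicate spread was not tested.

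**Figure D2:**
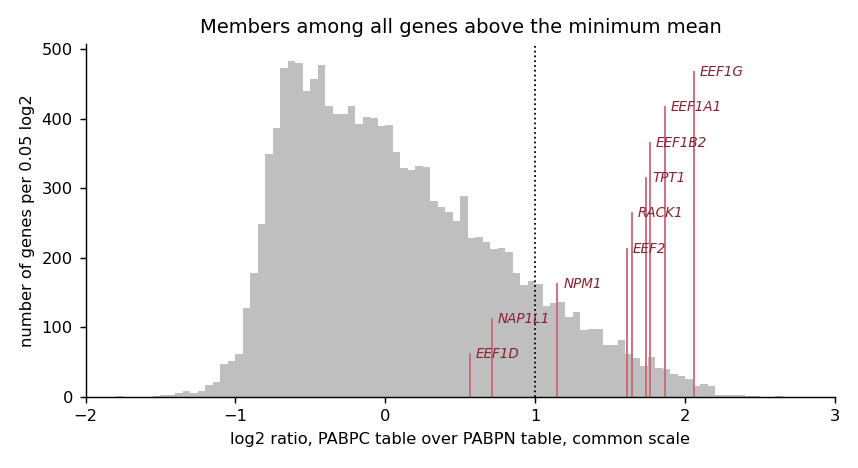
Number of genes (grey bars) by log2 ratio of the PABPC table over the PABPN table on the common scale, for the 14581 genes with a mean above 50 in both tables; red lines mark the 9 genes (their heights only separate the names) and the dotted line marks 2-fold. The lines of 7 genes stand right of the dotted line, and those of EEF1D and NAP1L1 stand left of it but right of the median of all genes.

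Levels of different genes were compared per kb of the deposited exonic length, which covers all isoforms. In the PABPC table on the common scale, EEF2 was highest at 46995 normalized reads per kb, followed by EEF1A1 at 36242, EEF1G at 31189 and RACK1 at 16692. EEF1B2 at 10460 and NPM1 at 10077 were close to each other. TPT1 at 3182, NAP1L1 at 1697 and EEF1D at 1627 were lowest, so the range was 28.9-fold. In the PABPN table the range was 16.1-fold, from TPT1 at 954 per kb to EEF2 at 15390. EEF2, EEF1A1, EEF1G and RACK1 were the highest in this order in both tables. The order and the ranges were obtained with the deposited length only and can change with another length. That length was 5740 bases in RACK1 and 9390 in EEF1D, whose canonical transcripts have 1140 and 2090 exonic bases. For EEF2 the deposited and canonical lengths were 4021 and 3158 bases, and for TPT1 they were 7183 and 4548 bases. Intronic reads are in these means too, while intron length is not in the divisor. Reads that fit a pseudogene equally well may be missing from a level, to an extent not known here.

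EEF1D and NAP1L1, which had the lowest ratios, also had the longest deposited exonic lengths, 9390 and 17282 bases, against 1915 bases for EEF1B2 and 2639 for EEF1G. The canonical transcript of NAP1L1 was also the longest, with 13159 exonic bases. That of EEF1D has 2090, fewer than EEF2 at 3158, EEF1A1 at 3512 and TPT1 at 4548. Spearman's rho of deposited exonic length and ratio was -0.617 over the 9 genes and -0.443 over the 12452 protein coding genes above the minimum. It is given as a description, and all points come from the same 9 libraries. No rho was computed with canonical exonic bases, so the rho over the 9 genes holds for the deposited length only and can change with another length. The introns of the canonical transcript spanned 1771 bases in EEF1A1, 34942 in NAP1L1, 21732 in NPM1 and 15598 in EEF1D, with a rho of -0.700 between intron span and ratio over the 9 genes. EEF1G, with 12850 intronic bases and the highest ratio, did not follow this order. That span leaves out introns of other isoforms, though the counts were not limited to the canonical transcript. For EEF1A1, at chr6:73489308-73525587, the gene is far longer than the 1771 intronic and 3512 exonic bases of its canonical transcript. No rho was computed with introns of all isoforms, so -0.700 holds for the canonical transcript only. Intronic reads were part of every mean, and their part in the ratios was not tested.

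**Figure D3:**
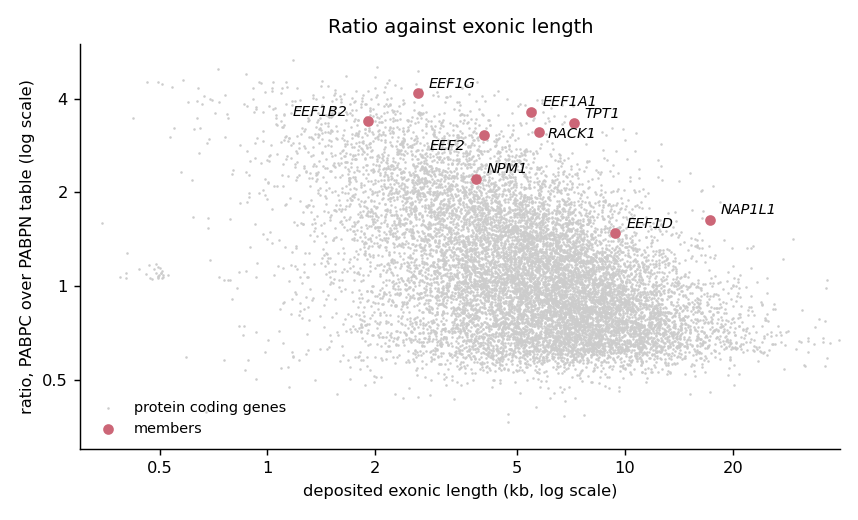
Ratio of the PABPC table over the PABPN table (log scale) against deposited exonic length in kb (log scale) for the 9 genes (red) and all protein coding genes above the minimum mean (grey). Ratios tended to be lower at greater deposited lengths in both sets (rho -0.617 over the 9 genes and -0.443 over protein coding genes). No rho was computed with canonical lengths. TPT1 at 7183 bases keeps a ratio of 3.34.

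Introns of some of these genes also hold small nucleolar RNAs, which guide the modification of ribosomal RNA. In GENCODE release 44, 4 of the 9 genes held 8 annotations of such RNAs on their own strand. Of these 7 lay in introns of the canonical transcript and 1 in an exon. These were SNORD51, SNORA41 and snoZ196 in EEF1B2, SNORD37 in EEF2, SNORD95 and SNORD96A in RACK1, and SNORA31 and the exonic SNORA31B in TPT1. The annotations of SNORD51 and snoZ196 overlap, so the 8 are not all separate places. Their 4 hosts had ratios between 3.05 and 3.39. The 5 genes with none spanned the whole range from 1.48 to 4.16, so the hosts did not stand apart.

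Cytosolic ribosomal protein genes are the classical TOP messages, and the ratios of the 79 above the minimum bracketed most of the 9 genes. The 79 were found by symbol and include RPL39L and RPS27L, whose place among TOP messages was not checked. Their median ratio was 3.64, and 78 of 79 were above 2, all but RPL39L, against 12.2% of all genes. RPL39L at 1.78 and RPL22 at 2.22 were lowest, and RPLP1 at 4.55 was among the highest. EEF1A1 lay in their middle, above 39 of them, and EEF1G above 66. EEF1B2 lay above 21, TPT1 above 20, RACK1 above 12 and EEF2 above 10. NPM1 lay above 1 of them, RPL39L, and EEF1D and NAP1L1 below all 79.

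Of 14 further TOP messages, 13 were listed in both tables and all were above the minimum, with a median ratio of 2.32. The ratio was above 2 for 8 of the 13, against 12.2% of all genes. The count was 6 with each table as deposited and 7 with the sums of the means set equal, against 7.93% and 8.99% of all genes. BTF3, a subunit of the nascent polypeptide-associated complex, was highest at 3.43, followed by the prefoldin subunit PFDN5 at 3.01. The initiation factor subunits EIF3H at 1.15 and EIF3E at 1.53 were lowest.

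The other 28 genes of cytosolic elongation, of the modification of eEF1A, eEF2 and eIF5A, of termination and of ribosome rescue had a median ratio of 1.47, and 7 of 28 were above 2. At this scale 12.2% of all genes were above 2. The count depended on the scale between the tables. It was 2 of 28 when each table was left as deposited, against 7.93% of all genes. With the sums of the means set equal it was 4, against 8.99%, and with the median of all genes set to 1 it was 8, against 13.1%. EIF5A, whose protein helps the ribosome past difficult peptide bonds, was highest at 4.30, with means of 8021 and 34489. EEF1AKMT4, an eEF1A lysine methyltransferase, followed at 2.92 with a lower mean of 368 in the PABPN table. EEFSEC, the elongation factor for selenocysteine, was lowest at 0.671 and DPH6, a diphthamide synthesis enzyme that acts on eEF2, was next at 0.672. The ratio was below 1 for 9 of these 28 genes. EEF1A2, the paralog of EEF1A1 known from neurons and muscle, had means of 1915 and 4117 and a ratio of 2.15. EEF1E1, which despite its name is a component of the multi-tRNA synthetase complex, had a ratio of 0.915.

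Of the 5 nuclear genes for mitochondrial elongation factors, only TUFM, the counterpart of EEF1A1, was above 2, at 2.83, beside 12.2% of all genes. The others ran from GFM2 at 1.05 through GFM1 at 1.13 to TSFM at 1.49, and the list's median was 1.18. Of the paralogs of the partners, NPM3 had a ratio of 3.77 against 2.21 for NPM1, NAP1L4 had 1.04 against 1.64 for NAP1L1, and NPM2 had 0.704 at a mean of 106 in the PABPN table. NAP1L2, NAP1L3 and NAP1L5 were below the minimum. Of the paralogs above the minimum, NPM3 thus lay above its partner, and NPM2 and NAP1L4 lay below theirs.

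**Figure D4:**
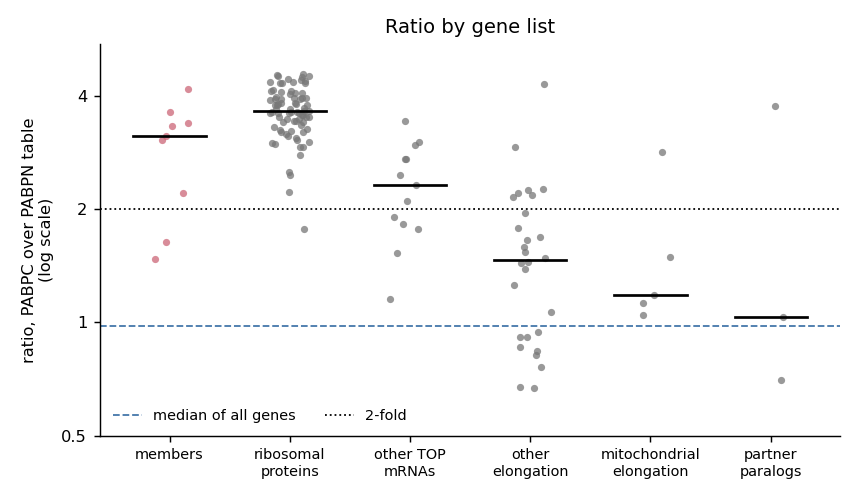
Ratio of the PABPC table over the PABPN table (log scale) for the 9 genes (red) and 5 gene lists (grey), 1 point a gene above the minimum mean, with black bars at the medians, a dashed line at the median of all genes (0.976) and a dotted line at 2-fold. The medians are 3.12 for the 9 genes, 3.64 for ribosomal proteins, 2.32 for other TOP mRNAs, 1.47 for other elongation genes, 1.18 for mitochondrial elongation and 1.04 for partner paralogs; no differences between lists were tested.

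Reads of genes with near-identical copies are uncertain, since an aligner can place them in either. The tables listed 102 pseudogenes named after a member, 30 for EEF1A1 and 39 for NPM1, and none for EEF2 or RACK1. The summed means of a gene's pseudogenes were at most 0.756% of its own mean in either table. Reads that fit a gene and its copy equally well may have been left uncounted in both. These sums do not show how many such reads there were. Only EEF1A1P5, EEF1A1P11 and EEF1A1P13 were above the minimum, with ratios of 4.35, 3.98 and 4.99 beside 3.64 for EEF1A1.

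The genes nearest to the median of the 9 in both means were EIF4G2, SERBP1, LDHB, NUCKS1 and YBX1, of 12299 protein coding genes in no list. Nearness was the distance in the log2 means of the 2 tables from the median of the 9 genes, which lay at 17930 and 38576 normalized reads. These are the PABPN table mean of NAP1L1 and the PABPC table mean of NPM1. The point thus does not stand for the 6 members above 3-fold, and genes with means near a single member were not looked for. The distances ran from 0.10 for EIF4G2 to 0.22 for YBX1 on the log2 scale. Being chosen on both means, they had ratios close to each other by construction, 2.28 for EIF4G2, 2.003 for SERBP1, 2.51 for LDHB, 2.05 for NUCKS1 and 2.56 for YBX1.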

How the data were processed

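Ribosomal RNA was removed before 9 libraries were made from total RNA and read from 1 end over 75 nt; groups follow the sample titles. The authors used STAR with the primary assembly of hg38, and featureCounts 2.0.2 (version from the submitters' processing notes) to count reads over introns and exons together. Stretches shared by overlapping genes and genes reached by upstream transcription were removed by the authors. The signal deposited by the authors, 1 value a gene and table, is the mean over 6 libraries of counts divided by DESeq2 size factors; an exonic length stands beside it. A further 5 columns of each table hold the authors' own comparison of RIP with input (fold change, its error, statistic and p-values). They were not used, so no test is given.

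The first of 123 repeated rows was kept in each table. Genes with 1 read in 1 library take a mean set by that library's size factor alone, and such values, shared by both tables, identified the 3 input libraries. All 9182 means between 0 and 1 in the PABPN table and all 9314 in the PABPC table were sums of whole reads within 1e-09. The geometric mean of the input scales, which ran from 1.16 to 1.18, set the common scale. The minimum mean of 50 in both tables follows the study. Ratios past 2-fold were counted. The scaling and the bounds were tested on simulated data in which all input libraries shared a single scale. A spread of input scales such as 1.16 to 1.18 was not simulated. Counting error treats reads as independent molecules and normalized counts as reads. It also treats the 2 means as independent, although both hold the same 3 input libraries.

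The members and lists were chosen with earlier results of these data known. All members were named, and in each list the 2 highest and 2 lowest ratios could be, with EEF1A2, EEF1E1, EIF5A, TUFM, NAP1L4 and NPM3. Ribosomal proteins, pseudogenes and members were found by symbol, and METTL13 was listed as EEF1AKNMT. Coordinates were taken from GENCODE release 44. Alternatives were other scales, folds and minimums, last repeated rows, pseudogenes added and levels with no length. Python 3.11.15, pandas 2.3.3, NumPy 2.4.6 and SciPy 1.17.1 were used.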

Additional observations from a re-analysis of the deposited data

How the results depend on the processing

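The ratio of every member stayed above 1 under all 6 other scales between the tables, from 1.26 to 4.27, and no direction reversed. The number of members past 2-fold was 7 with the median of all genes or of protein coding genes set to 1, against 13.1% and 10.8% of all genes. It was 6 with each table as deposited or with the sums of the means set equal, where NPM1 was no longer past it, against 7.93% and 8.99% of all genes. The median ratio over the members was 2.67 with the tables as deposited, 3.202 with the median of all genes set to 1, 2.79 with the sums set equal and 3.00 with the median of protein coding genes set to 1. These scales put the median of all genes at 0.834, 1, 0.870 and 0.936. The other elongation genes past 2-fold numbered 2 as deposited, 4 with equal sums and 8 with the median of all genes set to 1. At 1.5-fold 8 members were past the threshold, against 23.6% of all genes, and at 3-fold 6 were, against 3.30%. Other minimums, the last of repeated rows and added pseudogenes left the count of members at 7. The lowest and highest scale of a single input library were added after seeing the data and left it at 7 too.

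No paired analysis was possible because the column used holds 1 mean a gene over 6 libraries, with no value of a single library; leaving out a replicate in turn was not possible for the same reason. Replicate spread is therefore not part of these values, while counting error stayed under 1% for each member.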

Other observations

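The start motif of the members was also looked up in all genes. Of the 14581 genes above the minimum mean, 10763 had a RefSeq start window under the same symbol, and 787 of these had a C at a listed start base followed by at least 4 bases that are C or T. The ratio of the PABPC table over the PABPN table was above 2 for 184 of the 787 genes, or 23.4%, and their median ratio was 1.16. With the members and the cytosolic ribosomal protein genes left out, 132 of 734 genes with the motif were above 2, or 18.0%, with a median of 1.08. With the same genes left out, 12.4% of the 9958 genes without the motif were above 2, with a median of 1.01. These counts were made after the data were seen, the annotated start need not be the one used in these cells, and no test was made.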
